A study of Mus musculus with 6 samples.

Results

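Dividing cells copy their DNA in S phase and separate the copies in mitosis, and each step has its own set of transcripts. The genes described here are 45 such proliferation genes, 22 of S phase and 23 of G2 and mitosis (G2/M). They were chosen by name, and each was read from array rows that name exactly 1 gene. Where several rows named a gene, the row with the highest mean over the 6 arrays was kept. Of the 45 genes, 44 were measured, among 19938 genes in all. All 22 S genes and 22 of the 23 G2/M genes had a row. Ccnb1, which encodes cyclin B1, had no row naming it alone in the table used here and was not analysed.

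The cells were LSK CD150- cells, sorted from bone marrow that had first been enriched for Kit. LSK stands for lineage-negative, Sca-1+ and Kit+ cells, a fraction that includes stem cells and multipotent progenitors. In 3 mice of genotype Cebpafl/fl;Mx1Cre the interferon-inducible Mx1 promoter drove the Cre recombinase, and 3 Cebpafl/fl mice without Cre, which the labels also call wild-type, were the controls. Both Cebpa alleles were flanked by loxP sites in every mouse, every mouse received pIpC, a double-stranded RNA that switches on the Mx1 promoter, and all were killed on day 18. Cre and the loss of Cebpa therefore cannot be told apart, and since Mx1Cre acts in many cell types, neither can effects within these cells and effects from other tissues. The sources used here give neither age nor strain background. The comparison bears on whether the transcripts of division differ in these progenitors after deletion of Cebpa, which encodes a transcription factor of granulocyte and monocyte development.

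RNA of each mouse went on its own array (Affymetrix Mouse Gene 1.0 ST), and the 3 arrays per genotype limit the precision. Levels are log2 intensities, and a level of one gene cannot be set against that of another, because each gene has its own probes. Array medians were 6.16 to 6.20 in Cebpafl/fl;Mx1Cre mice and 6.22 to 6.23 in Cebpafl/fl mice. Cebpa itself read 6.37, 5.82 and 6.09 in Cebpafl/fl;Mx1Cre mice a, b and c, against 7.84, 7.85 and 7.73 in Cebpafl/fl mice a, b and c. It fell by 1.71 ± 0.14 on the log2 scale (limma, moderated SE, adjusted p = 0.000883), which is 3.27-fold (95% interval 2.63 to 4.07), and an exact two-sided permutation test gave p = 0.1, the smallest that 3 against 3 arrays allow. The letters a, b and c name mice within a genotype, and the sources used here state no pairing between genotypes. The labels describe the mice as female, while Kdm5d and Eif2s3y, 2 genes of the Y chromosome, read 8.04 to 8.28 in Cebpafl/fl;Mx1Cre mice and 8.13 to 8.49 in Cebpafl/fl mice, and Xist, the transcript of the inactive X chromosome, read 4.64 to 5.02 in Cebpafl/fl;Mx1Cre mice and 4.46 to 5.13 in Cebpafl/fl mice. Of the genes behind the sort, Kit read 9.23 to 9.59 in Cebpafl/fl;Mx1Cre mice and 10.02 to 10.31 in Cebpafl/fl mice. Slamf1, which encodes CD150, read 3.94 to 4.86 in Cebpafl/fl;Mx1Cre mice and 3.48 to 3.93 in Cebpafl/fl mice, below the array medians, and Ly6a, the gene for Sca-1, had no row naming it alone.

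As background, the S-phase genes are switched on at the end of G1 by E2F transcription factors, once G1 cyclins and their kinases have inactivated the retinoblastoma family of repressors. The proteins then load and open the MCM helicase, make primers, clamp the polymerase to DNA and supply nucleotides. The mitotic genes peak later, and their promoters often hold a CCAAT box, bound by NF-Y, and a cell cycle genes homology region (CHR), bound by the MuvB complex with B-MYB and FOXM1. Long-term blood stem cells are mostly quiescent, while multipotent progenitors divide more often.

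The promoters of the genes show this split in part in their letters. Examples are shown for 2 S genes that hold E2F letters and 4 G2/M genes that hold CHR letters and a CCAAT box. They are not typical of all S genes, of which 7 of 18 held E2F letters in the search described below. The sequences are from RefSeq on build GRCm38.p6, cover bases upstream of the annotated start and are written 5′ to 3′ on the strand of the gene, ending at the base before the start. Capitals mark E2F letters in Mcm6 and Cdc6, and CHR letters in Plk1, Cdc20, Top2a and Mki67. CCAAT boxes in either orientation are capitals too. Mcm6 lies at chr1:128359706-128359820 on the minus strand, Cdc6 at chr11:98908006-98908150 on the plus strand, Plk1 at chr7:122159340-122159434 on the plus strand, Cdc20 at chr4:118437344-118437403 on the minus strand, Top2a at chr11:99024190-99024294 on the minus strand and Mki67 at chr7:135716380-135716569 on the minus strand.
Mcm6: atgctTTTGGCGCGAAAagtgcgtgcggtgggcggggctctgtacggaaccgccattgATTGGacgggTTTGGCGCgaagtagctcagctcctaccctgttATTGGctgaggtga
Cdc6: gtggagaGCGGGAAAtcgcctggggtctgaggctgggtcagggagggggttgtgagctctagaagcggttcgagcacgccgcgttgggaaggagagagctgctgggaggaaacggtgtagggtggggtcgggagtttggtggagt
Plk1: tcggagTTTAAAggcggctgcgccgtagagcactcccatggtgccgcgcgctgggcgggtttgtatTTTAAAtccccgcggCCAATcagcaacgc
Cdc20: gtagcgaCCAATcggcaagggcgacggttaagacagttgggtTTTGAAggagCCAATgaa
Top2a: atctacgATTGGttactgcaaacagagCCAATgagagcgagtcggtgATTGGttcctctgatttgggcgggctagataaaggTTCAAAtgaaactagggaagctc
Mki67: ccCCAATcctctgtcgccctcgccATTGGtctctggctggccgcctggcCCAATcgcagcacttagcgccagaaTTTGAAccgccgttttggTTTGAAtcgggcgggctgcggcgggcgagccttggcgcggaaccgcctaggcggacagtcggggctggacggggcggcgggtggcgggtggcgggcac

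All positions given next are those in the stretches shown. In Mcm6 the E2F letters began 110, 106 and 47 bases before the start, and the first and second of these overlap each other. Cdc6 had E2F letters 138 bases before the start and no CCAAT box in the stretch shown. Cdc20 had its CHR letters 18 bases before the start, between CCAAT boxes at 53 and 8 bases. Top2a had CHR letters at 23 bases, with CCAAT boxes at 98, 78 and 58 bases. In Mki67 the CHR letters stood at 116 and 98 bases and the CCAAT boxes further upstream, and in Plk1 the CHR letters stood at 89 and 29 bases with a CCAAT box at 14 bases.

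The search covered a window of 250 bases before to 50 after each start, which was given for 35 of the 44 measured genes, 3 of them with 2 windows. It used TTTCCCGC, TTTGGCGC, TTTCGCGC and TTTGCCGC for E2F, TTTGAA and TTTAAA for CHR and CCAAT for the CCAAT box, each on both strands. E2F letters stood in 7 of 18 S genes (38.9%) and in 1 of 17 G2/M genes (5.88%), against 3.48% of 15614 genes with a window. The S genes with E2F letters were Mcm3, Mcm5, Mcm6, Mcm7, Cdc6, Cdt1 and Pola1, and the G2/M gene was Cdk1, the kinase that starts mitosis. CHR letters stood in 15 of 17 G2/M genes (88.2%) and in 6 of 18 S genes (33.3%), against 27.0% of all genes. CHR letters together with a CCAAT box stood in 14 of 17 G2/M genes (82.4%) and in 3 of 18 S genes (16.7%), against 12.2% of all genes. Mitosis and replication genes outside those described here were searched too. Of 48 other mitosis genes, 35 held CHR letters (72.9%) and 26 held them together with a CCAAT box (54.2%), while 6 held E2F letters (12.5%). Of 37 other replication genes, 12 held E2F letters (32.4%), 11 CHR letters (29.7%) and 8 CHR letters with a CCAAT box (21.6%). The letters were therefore not particular to the genes described here. Bub1, a kinase of the spindle checkpoint, and Nusap1, which bundles spindle microtubules, were the G2/M genes whose windows held no CHR letters. These short letters recur by chance in any sequence, and a match is a description of the window only.

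No S gene and no G2/M gene passed the genotype test. In limma with Benjamini-Hochberg adjustment over all genes, 0 of 44 genes had an adjusted p under 0.05, against 1.43% of all genes (286). At an unadjusted p under 0.05, 11 of the 44 genes were past the limit, against 15.9% of all genes and 22.7% of the 9969 genes at or above the median intensity, where all 44 lie. Of these 11, 4 had higher values in Cebpafl/fl;Mx1Cre mice (9.09%), against 9.1% of all genes and 12.4% of genes at or above the median intensity. The other 7 had lower values (15.9%), against 6.77% of all genes and 10.4% of genes at or above the median intensity. Of the 22 S genes 4 were past the limit (18.2%), 2 higher (Ccne2 and Gins1) and 2 lower (Gins2 and Tk1). Of the 22 G2/M genes 7 were past it (31.8%), 2 higher (Plk1 and Kif20a) and 5 lower (Ttk, Foxm1, Mki67, Bub1b and Aurkb). The genotypes did not overlap in 8 genes (18.2%), against 21.2% of all genes and 27.5% of genes at or above the median intensity. Whether the counts of the G2/M genes or of the lower genes differ from the background was not tested. The 95% interval of the fold lay within 2-fold in either direction for 43 of 44 genes, all but Tk1. It lay within 1.5-fold for 34 of 44 (77.3%), against 80.7% of all genes and 74.4% of genes at or above the median intensity. In bulk RNA of sorted cells, fewer dividing cells and less transcript per dividing cell cannot be told apart.

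**Figure D1:**
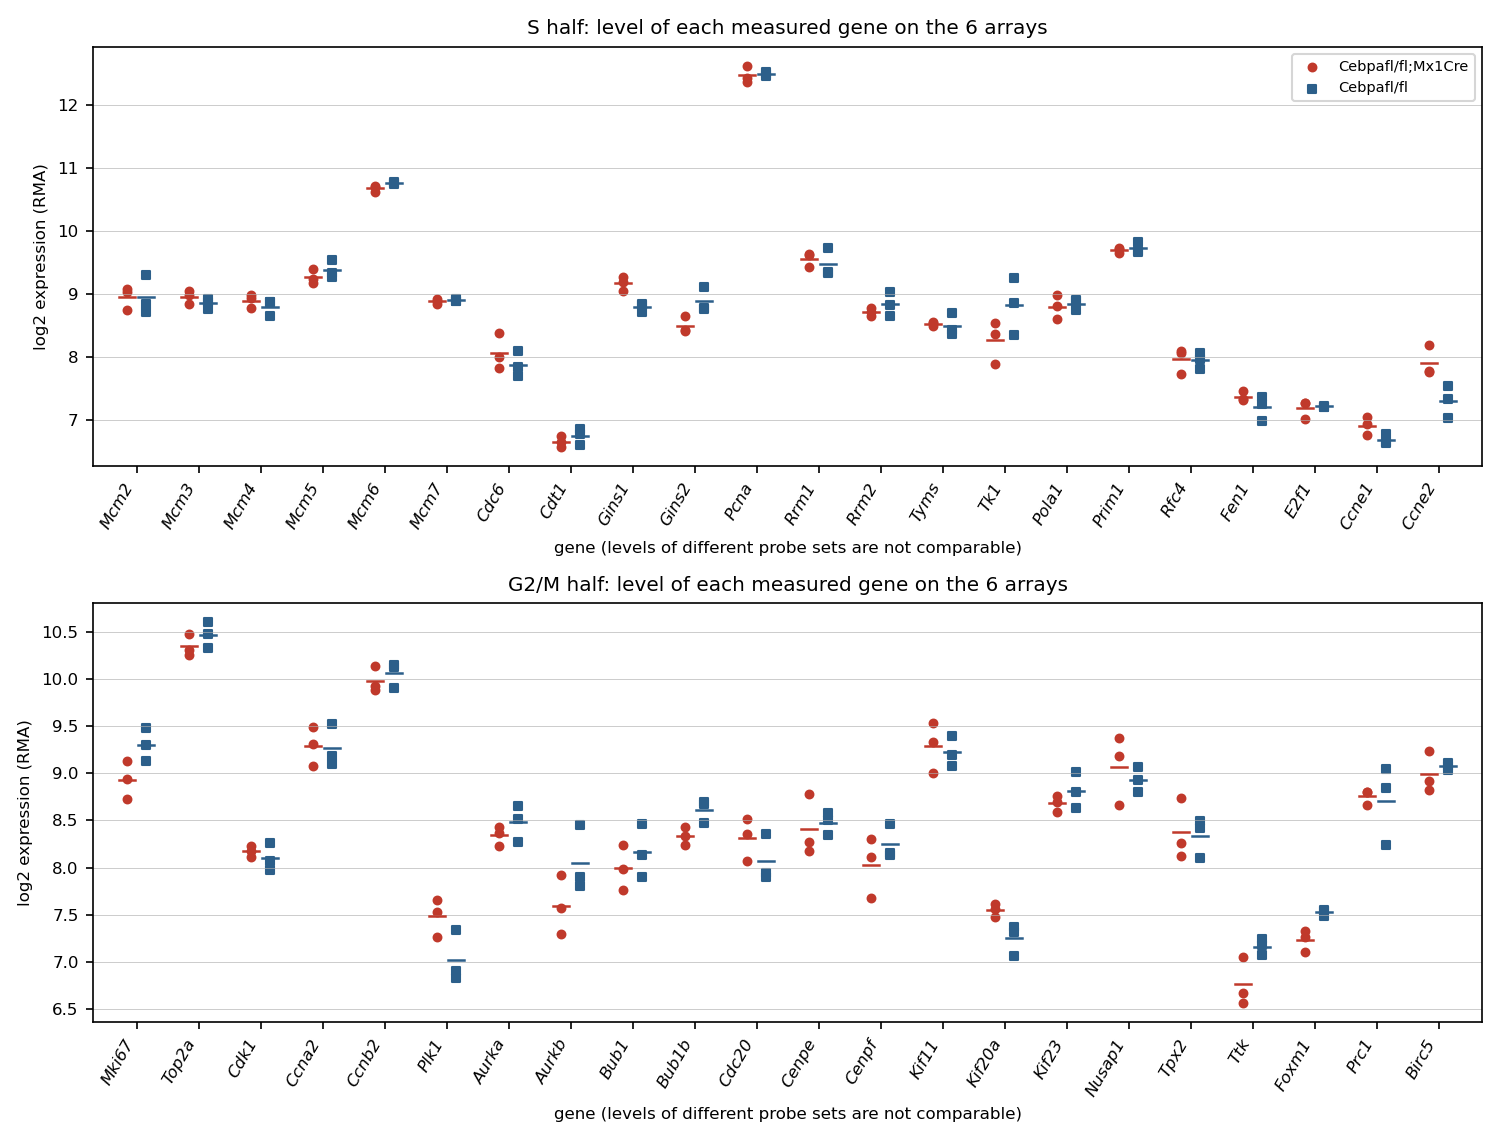
Level of each S gene (top panel) and G2/M gene (bottom panel) on each array, as log2 intensity on the vertical axis. Each point is 1 mouse, with the 3 Cebpafl/fl;Mx1Cre mice drawn left of the 3 Cebpafl/fl mice. For most genes the points of the genotypes overlap, Ccne2, Gins1 and Kif20a have all Cebpafl/fl;Mx1Cre points above the Cebpafl/fl points, and Mcm6, Gins2, Bub1b, Ttk and Foxm1 have them all below.

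The median difference of the 22 S genes, Cebpafl/fl;Mx1Cre minus Cebpafl/fl, was -0.0034 on the log2 scale, with 11 genes above 0 and 11 below. The median of all genes was 0.03, with 43.4% of them below 0. Of the genes at or above the median intensity, 49.0% were below 0. Single S genes ranged from -0.55 for Tk1 to 0.61 for Ccne2. Their median size of the difference was 0.096, against 0.124 for all genes and 0.151 for genes at or above the median intensity. The mean level of the S genes was 8.70 ± 0.06 in Cebpafl/fl;Mx1Cre mice and 8.68 ± 0.04 in Cebpafl/fl mice (SD, n = 3 each).

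Of the genes that start S phase, Ccne2, which encodes cyclin E2, had the smallest p of all 44 genes. It read 7.77, 7.79 and 8.19 in Cebpafl/fl;Mx1Cre mice, against 7.34, 7.03 and 7.54 in Cebpafl/fl mice. All values of the first genotype lay above those of the second, by 0.61 ± 0.16 or 1.53-fold (95% interval 1.19 to 1.96), and the adjusted p was 0.103. Ccne1, which encodes cyclin E1, read 6.76, 6.94 and 7.06 in Cebpafl/fl;Mx1Cre mice, against 6.66, 6.64 and 6.79 in Cebpafl/fl mice, a difference of 0.22 ± 0.11 (adjusted p = 0.382) with overlapping genotypes. E2f1, which encodes the E2F factor best known for activating these genes, read 7.02, 7.27 and 7.28 in Cebpafl/fl;Mx1Cre mice, against 7.21, 7.21 and 7.23 in Cebpafl/fl mice, a difference of -0.03 ± 0.11 (adjusted p = 0.924).

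Of the genes for the helicase and its loading, the 6 MCM genes had differences between -0.11 and 0.10. Mcm2, whose product is a subunit of the helicase ring, read 9.04, 8.75 and 9.09 in Cebpafl/fl;Mx1Cre mice, against 9.30, 8.72 and 8.84 in Cebpafl/fl mice, and the difference was 0.0026 ± 0.16 (adjusted p = 0.995). Mcm6 read 10.70, 10.72 and 10.63 in Cebpafl/fl;Mx1Cre mice, against 10.74, 10.78 and 10.77 in Cebpafl/fl mice, and the genotypes did not overlap, at a difference of -0.08. Mcm7 read 8.90, 8.85 and 8.93 in Cebpafl/fl;Mx1Cre mice and 8.92, 8.88 and 8.89 in Cebpafl/fl mice. The differences of Mcm3, Mcm4 and Mcm5 were 0.10, 0.10 and -0.11. Cdc6 and Cdt1, which load the ring on DNA, differed by 0.19 and -0.09.

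Gins1 and Gins2, whose products sit in the same GINS complex that activates the helicase, had values on opposite sides. Gins1 read 9.19, 9.05 and 9.27 in Cebpafl/fl;Mx1Cre mice, against 8.84, 8.72 and 8.83 in Cebpafl/fl mice, a difference of 0.37 ± 0.10 or 1.29-fold (adjusted p = 0.124). Gins2 read 8.65, 8.43 and 8.42 in Cebpafl/fl;Mx1Cre mice, against 9.12, 8.79 and 8.77 in Cebpafl/fl mice, a difference of -0.39 ± 0.13 (adjusted p = 0.1805). For both genes the genotypes did not overlap, and neither passed the test. Over the 10 genes of helicase, loading and GINS, 5 differences were above 0 and 5 below.

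Of the polymerase and clamp genes, Pcna, which encodes the sliding clamp, read 12.61, 12.37 and 12.43 in Cebpafl/fl;Mx1Cre mice, against 12.52, 12.45 and 12.49 in Cebpafl/fl mice, a difference of -0.015 ± 0.11 (adjusted p = 0.963). Fen1, the nuclease that trims flaps between Okazaki fragments, read 7.32, 7.46 and 7.34 in Cebpafl/fl;Mx1Cre mice, against 6.99, 7.26 and 7.37 in Cebpafl/fl mice, a difference of 0.16 ± 0.12 (adjusted p = 0.576). In both the genotypes overlapped. Pola1 and Prim1, of the primase complex, differed by -0.05 and -0.03, and Rfc4, a subunit of the clamp loader, by 0.02.

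Of the genes for nucleotide supply, Tk1, which encodes the thymidine kinase of dividing cells, read 8.37, 7.89 and 8.55 in Cebpafl/fl;Mx1Cre mice, against 8.86, 9.25 and 8.35 in Cebpafl/fl mice. The difference was -0.55 ± 0.23 (adjusted p = 0.281), and Cebpafl/fl mouse c lay below 2 of the Cebpafl/fl;Mx1Cre mice. A second row naming Tk1 read 8.13, 7.82 and 7.91 in Cebpafl/fl;Mx1Cre mice, against 9.01, 8.58 and 8.39 in Cebpafl/fl mice, with no overlap, and in a fit with this row, chosen after seeing the data, the difference was -0.70 with an adjusted p of 0.0698. The rows disagree on whether the genotypes overlap, they lie furthest apart in Cebpafl/fl;Mx1Cre mouse c and Cebpafl/fl mouse b, and neither passed. Rrm1 and Rrm2, the subunits of ribonucleotide reductase, differed by 0.09 and -0.12, and Tyms, which encodes thymidylate synthase, by 0.03.

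The 22 G2/M genes had a median difference of -0.08, with 9 genes above 0 and 13 below. These 13 are 59.1%, against 43.4% of all genes and 49.0% of genes at or above the median intensity. They ranged from -0.46 for Aurkb to 0.46 for Plk1. The median size of the difference was 0.138, against 0.124 for all genes and 0.151 for genes at or above the median intensity. Their mean level was 8.45 ± 0.16 in Cebpafl/fl;Mx1Cre mice and 8.52 ± 0.11 in Cebpafl/fl mice (SD, n = 3 each), so the genotype means lay closer than the mice of 1 genotype.

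Of the mitotic kinases, Plk1, which acts from the entry into mitosis to its end, read 7.65, 7.26 and 7.53 in Cebpafl/fl;Mx1Cre mice, against 7.34, 6.90 and 6.83 in Cebpafl/fl mice, a difference of 0.46 ± 0.16 (adjusted p = 0.196). Mouse b of the first genotype lay below mouse a of the second. Aurkb, the kinase of the chromosomal passenger complex, read 7.92, 7.57 and 7.29 in Cebpafl/fl;Mx1Cre mice, against 8.45, 7.90 and 7.80 in Cebpafl/fl mice, a difference of -0.46 with overlap between the genotypes. Birc5 encodes survivin, a partner of Aurora B in that complex, and differed by -0.08. Aurka, the kinase of the spindle poles, differed by -0.13. Cdk1 and its cyclins Ccna2 and Ccnb2 differed by 0.07, 0.02 and -0.08.

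Of the spindle checkpoint genes, Ttk, which encodes the kinase MPS1, read 7.06, 6.67 and 6.56 in Cebpafl/fl;Mx1Cre mice, against 7.24, 7.18 and 7.07 in Cebpafl/fl mice, a difference of -0.40 ± 0.14 (adjusted p = 0.197). Bub1b, which encodes the inhibitor BUBR1, read 8.43, 8.24 and 8.33 in Cebpafl/fl;Mx1Cre mice, against 8.70, 8.67 and 8.47 in Cebpafl/fl mice, a difference of -0.28 ± 0.11 (adjusted p = 0.256). In both genes every Cebpafl/fl;Mx1Cre value lay below every Cebpafl/fl value. Bub1 differed by -0.17, and Cdc20, the activator of the anaphase-promoting complex that the checkpoint restrains, differed by 0.24 in the other direction. None of the 4 passed the test.

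Of the spindle and midzone genes, Kif20a, a kinesin of the central spindle, read 7.61, 7.48 and 7.56 in Cebpafl/fl;Mx1Cre mice, against 7.31, 7.07 and 7.37 in Cebpafl/fl mice, a difference of 0.30 ± 0.11 (adjusted p = 0.2305) without overlap. Kif23, a kinesin of the same structure, differed by -0.13, and Prc1, which crosslinks its microtubules, by 0.05. The differences of the kinetochore genes Cenpe and Cenpf were -0.07 and -0.22, and those of the spindle genes Kif11, Nusap1 and Tpx2 were 0.07, 0.14 and 0.04. Over these genes and Birc5, 5 differences were above 0 and 4 below.

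The 3 genes of chromosomes and transcription all had lower means in Cebpafl/fl;Mx1Cre mice without passing. Foxm1, a transcription factor of the mitotic genes, read 7.27, 7.33 and 7.11 in Cebpafl/fl;Mx1Cre mice, against 7.54, 7.49 and 7.55 in Cebpafl/fl mice, a difference of -0.29 ± 0.10 (adjusted p = 0.201) without overlap. Mki67, which encodes the proliferation marker Ki-67, read 9.13, 8.73 and 8.94 in Cebpafl/fl;Mx1Cre mice, against 9.30, 9.48 and 9.13 in Cebpafl/fl mice, a difference of -0.37 ± 0.14 (adjusted p = 0.223), with the highest value of the first genotype and the lowest of the second both at 9.13. Top2a, the topoisomerase that untangles sister chromosomes, read 10.48, 10.31 and 10.25 in Cebpafl/fl;Mx1Cre mice, against 10.60, 10.47 and 10.32 in Cebpafl/fl mice, a difference of -0.12 ± 0.12 (adjusted p = 0.675) with overlap.

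**Figure D2:**
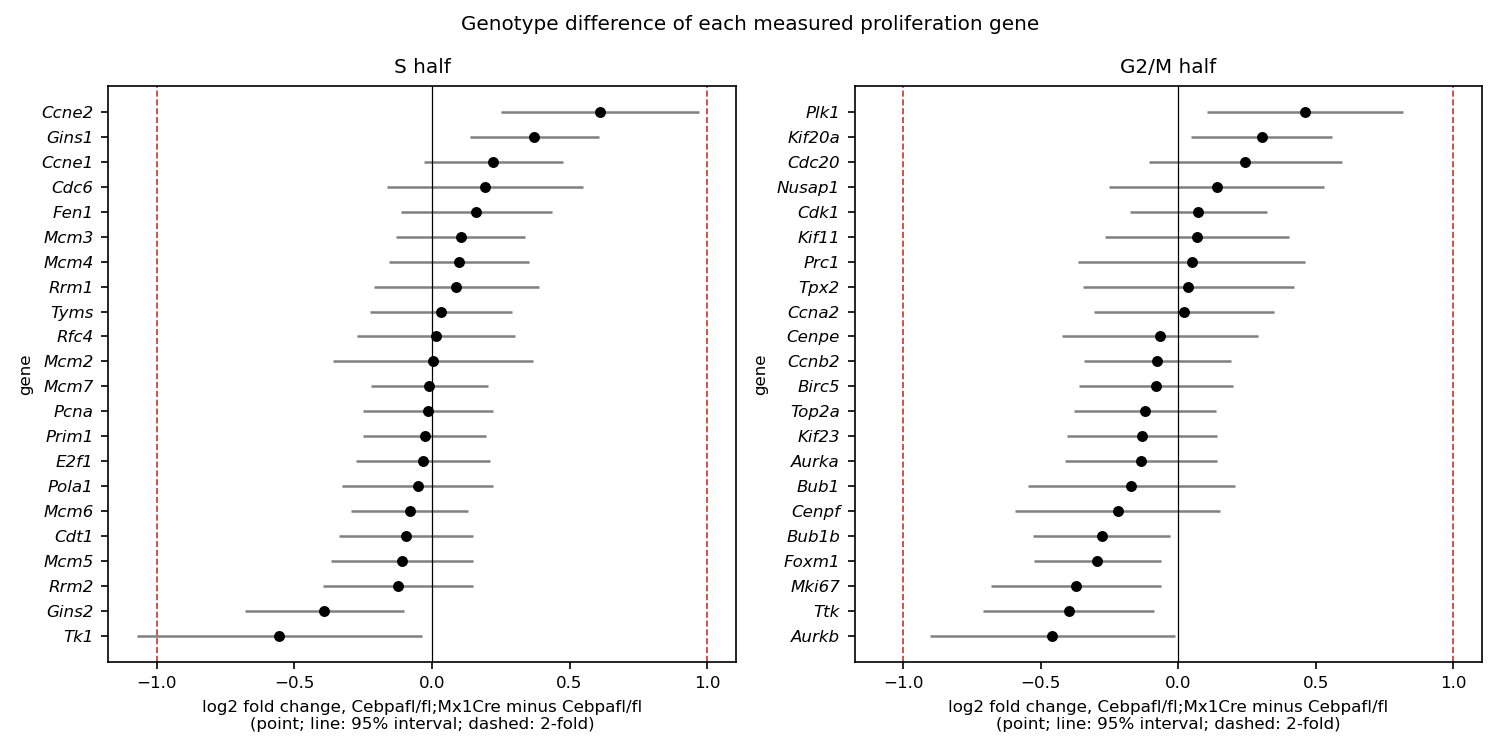
Difference of each gene, Cebpafl/fl;Mx1Cre minus Cebpafl/fl, on the log2 scale, with its 95% interval from limma, for the S genes and the G2/M genes. The S genes run from -0.55 for Tk1 to 0.61 for Ccne2 and the G2/M genes from -0.46 to 0.46, on both sides of 0.

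Within each genotype the G2/M genes varied together from mouse to mouse, and the S genes as a whole did so much less. The mean level of the 22 G2/M genes was 8.62, 8.30 and 8.43 in Cebpafl/fl;Mx1Cre mice a, b and c, against 8.63, 8.49 and 8.42 in Cebpafl/fl mice a, b and c. The range among mice was 0.32 in Cebpafl/fl;Mx1Cre and 0.21 in Cebpafl/fl. For the 22 S genes the means were 8.71, 8.64 and 8.76 in Cebpafl/fl;Mx1Cre mice, against 8.72, 8.64 and 8.69 in Cebpafl/fl mice, and the ranges 0.11 in Cebpafl/fl;Mx1Cre and 0.08 in Cebpafl/fl. Mouse a thus had the highest G2/M mean in each genotype, while its S mean was the highest only in Cebpafl/fl.

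**Figure D3:**
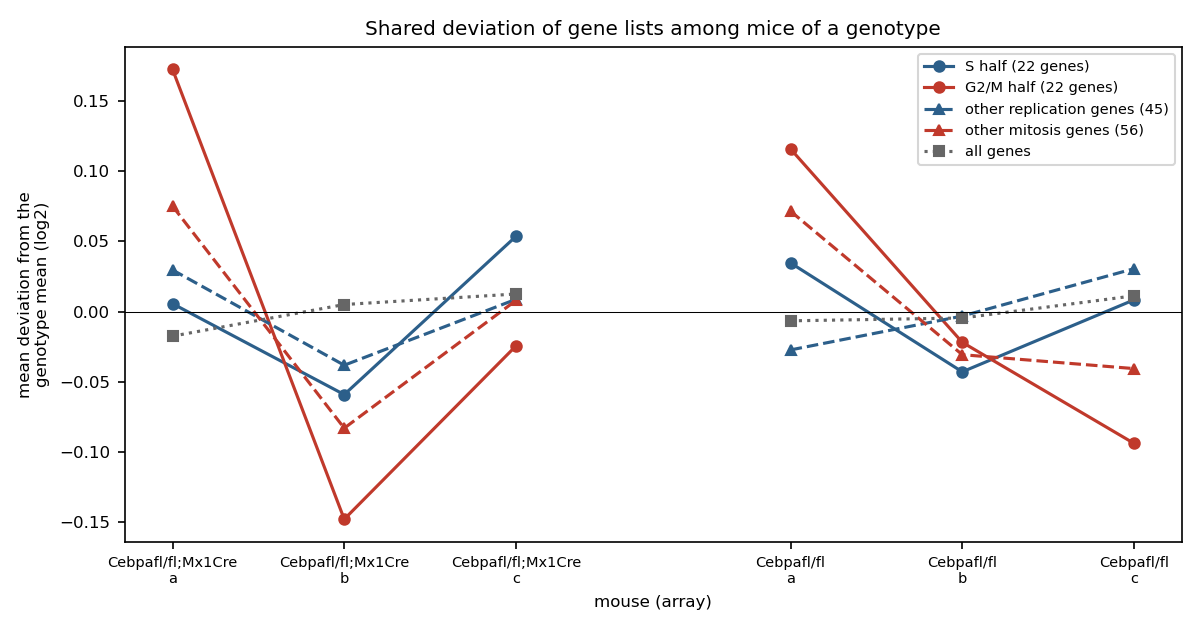
Mean deviation from the genotype mean (vertical axis, log2) on each array for the S genes, the G2/M genes, other replication genes, other mitosis genes and all genes, with the Cebpafl/fl;Mx1Cre mice left of the Cebpafl/fl mice. Lines join points of one list and imply no order of mice. The G2/M points spread over 0.32 and 0.21 within the genotypes, the S points over 0.11 and 0.08, and all genes stay near 0.

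Counted gene by gene, 20 of 22 G2/M genes lay above their genotype mean in Cebpafl/fl;Mx1Cre mouse a, 3 in mouse b and 12 in mouse c. In Cebpafl/fl mice the counts were 18 in mouse a, 11 in mouse b and 4 in mouse c. Over all genes 44.98% to 53.7% lay above on each array, and over genes at or above the median intensity 46.2% to 56.6%. The S genes gave 15, 9 and 13 of 22 in Cebpafl/fl;Mx1Cre mice and 13, 6 and 14 in Cebpafl/fl mice. The genes of a set share the array and the cells, so these counts describe the 6 mice and are not replicates.

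Among single G2/M genes, Nusap1 read 9.37, 8.66 and 9.18 in Cebpafl/fl;Mx1Cre mice a, b and c, against 8.93, 9.07 and 8.80 in Cebpafl/fl mice. Tpx2, whose product activates Aurora A on the spindle, read 8.74, 8.12 and 8.27 in Cebpafl/fl;Mx1Cre mice, against 8.49, 8.42 and 8.11 in Cebpafl/fl mice. Cenpe, a kinesin of the kinetochore, read 8.78, 8.18 and 8.27 in Cebpafl/fl;Mx1Cre mice, against 8.58, 8.50 and 8.34 in Cebpafl/fl mice. In all 3 genes Cebpafl/fl;Mx1Cre mouse a was the highest and mouse b the lowest of its genotype. Kif11, the kinesin that pushes the spindle poles apart, read 9.53, 9.0041 and 9.34 in Cebpafl/fl;Mx1Cre mice, against 9.39, 9.08 and 9.19 in Cebpafl/fl mice. Cdc20 read 8.51, 8.07 and 8.35 in Cebpafl/fl;Mx1Cre mice, against 8.36, 7.90 and 7.95 in Cebpafl/fl mice, and Ccna2, which encodes cyclin A2, read 9.49, 9.08 and 9.31 in Cebpafl/fl;Mx1Cre mice, against 9.52, 9.19 and 9.10 in Cebpafl/fl mice. These genes showed mouse a as the highest in both genotypes.

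Compared pair by pair, Cebpafl/fl;Mx1Cre mouse a lay above mouse b in 20 of 22 G2/M genes, with a median difference of 0.37, and the exceptions were Kif23 and Foxm1. It lay above mouse c in 19 of 22 (median 0.18), and mouse b lay above mouse c in 6. Cebpafl/fl mouse a lay above mouse b in 17 of 22 (median 0.10) and above mouse c in 18 (median 0.23), and mouse b lay above mouse c in 16. For the S genes the counts were 13, 10 and 7 of 22 in Cebpafl/fl;Mx1Cre mice and 14, 11 and 6 in Cebpafl/fl mice, in the same order of pairs. Some G2/M genes went their own way: in Cebpafl/fl mice Cenpf read 8.16, 8.46 and 8.13, Bub1 read 8.13, 8.47 and 7.90, and Prc1 read 8.84, 8.24 and 9.04.

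**Figure D4:**
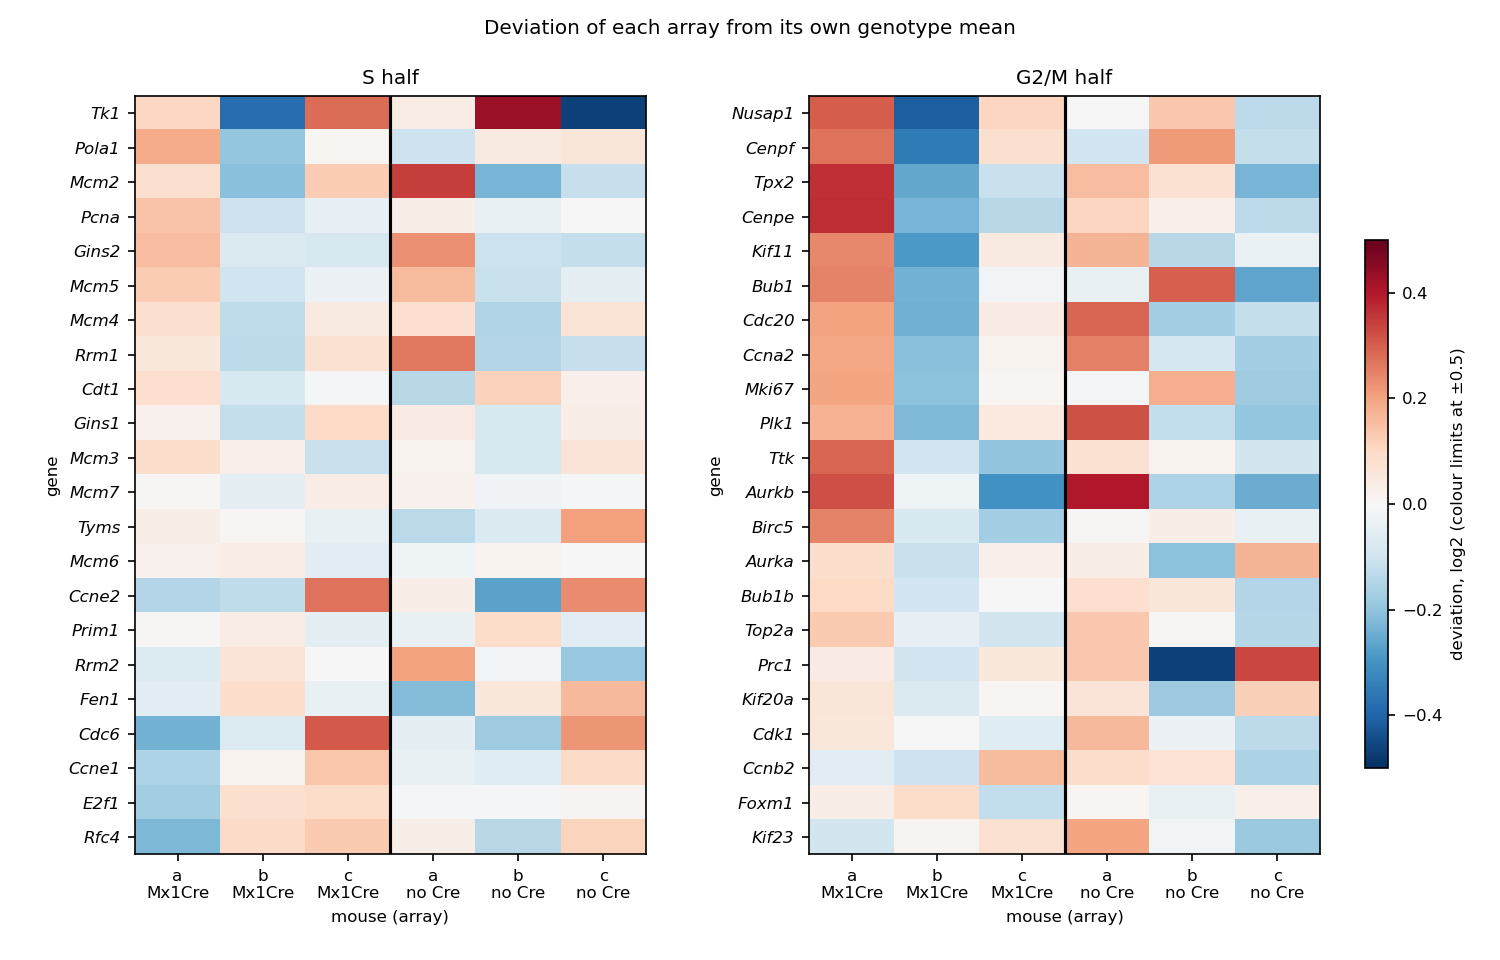
Deviation of each gene from the mean of its own genotype, on the log2 scale, for each array, with the S genes and the G2/M genes apart and the Cebpafl/fl;Mx1Cre mice before the Cebpafl/fl mice. In mouse a of each genotype most G2/M genes lie above 0 (20 and 18 of 22), while the S genes are mixed (15 and 13 of 22).

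The size of the shared part was taken as the variance of a set's mean within genotypes, as a percentage of the mean variance of its genes. It was 41.8% for the G2/M genes and 8.51% for the S genes, where unrelated genes would give 4.55% in sets of 22. The SD of the set mean within genotypes was 0.137 for G2/M genes, beside a median SD of 0.203 for single genes, and 0.049 beside 0.130 for S genes. The value for G2/M leaned on Cebpafl/fl;Mx1Cre mouse a: it was 27.5% without that mouse and 34.1% to 53.5% without any other. The S value was 4.88% without Cebpafl/fl;Mx1Cre mouse b.

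Within the S genes, the 10 helicase, loading and GINS genes leaned the same way as the G2/M genes in part. Of these 10, 9, 2 and 5 lay above their genotype mean in Cebpafl/fl;Mx1Cre mice a, b and c, and 7, 2 and 6 in Cebpafl/fl mice. The cyclin E genes and E2f1 ran differently: all 3 lay below their genotype mean in Cebpafl/fl;Mx1Cre mouse a and above it in mouse c, with mean deviations of -0.16, -0.01 and 0.17, and in Cebpafl/fl mice the deviations were -0.0034, -0.11 and 0.11. Cdc6 read 7.84, 8.01 and 8.38 in Cebpafl/fl;Mx1Cre mice, against 7.84, 7.70 and 8.10 in Cebpafl/fl mice, so mouse c was the highest in each genotype.

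Mitosis genes outside the list showed the same order of mice, less strongly. Of 58 other mitosis genes 56 were measured, and 40, 16 and 31 lay above their genotype mean in Cebpafl/fl;Mx1Cre mice a, b and c, and 42, 22 and 20 in Cebpafl/fl mice. Their shared part was 18.9% (1.79% if unrelated). For 45 of 47 other replication genes it was 4.24% (2.22% if unrelated), and the counts above the mean were 26, 16 and 24 in Cebpafl/fl;Mx1Cre mice and 18, 18 and 28 in Cebpafl/fl mice.

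Cell type markers also varied among these mice, in both directions. Of 9 lymphoid markers 1, 5 and 6 lay above their genotype mean in Cebpafl/fl;Mx1Cre mice a, b and c (mean deviations -0.18, 0.04 and 0.14), and 3, 5 and 7 in Cebpafl/fl mice (-0.08, -0.03 and 0.11), so mouse a was the lowest in each genotype. Of 11 stem cell markers 3, 3 and 10 lay above it in Cebpafl/fl;Mx1Cre mice (-0.08, -0.07 and 0.16), and 3, 8 and 7 in Cebpafl/fl mice (-0.13, 0.09 and 0.04). Mouse a was the lowest in Cebpafl/fl, while mice a and b lay close together in Cebpafl/fl;Mx1Cre. Mast cell and basophil markers had mean deviations of 0.26, -0.20 and -0.06 in Cebpafl/fl;Mx1Cre mice, with 5, 1 and 3 of 8 above, and of 0.01, 0.02 and -0.03 in Cebpafl/fl mice, with 2, 4 and 2 above.

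Of 9 erythroid markers 5, 2 and 6 lay above in Cebpafl/fl;Mx1Cre mice a, b and c, at mean deviations within 0.01 of 0, and 9, 2 and 1 in Cebpafl/fl mice (0.22, -0.14 and -0.08). Granulocyte markers had mean deviations of 0.07, -0.03 and -0.04 in Cebpafl/fl;Mx1Cre mice and 0.07, -0.05 and -0.02 in Cebpafl/fl mice, with 3 to 5 of 10 above on each array. Markers of granulocyte-monocyte precursors had 0.05, -0.005 and -0.05 in Cebpafl/fl;Mx1Cre mice and 0.0021, -0.04 and 0.04 in Cebpafl/fl mice. Megakaryocyte markers stayed within 0.02 of their genotype mean on average, and T and NK cell markers had -0.06, -0.02 and 0.09 in Cebpafl/fl;Mx1Cre mice and 0.05, -0.07 and 0.01 in Cebpafl/fl mice. The part of any of these cells in the G2/M levels was not tested.

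Between genotypes, 4 of 11 measured stem cell markers fell in Cebpafl/fl;Mx1Cre mice, among them Hlf and Mecom, with differences of -1.44 and -1.47. Over the 11 markers 3 differences were above 0 and 8 below, at a median of -0.61. Slamf1, which read below the array medians, differed by 0.53 without overlap. The summed level of a list is the log2 of the added intensities of all its measured markers, so the brightest rows weigh most. For the 11 stem cell markers it was 10.34 to 10.58 in Cebpafl/fl;Mx1Cre mice, against 11.12 to 11.39 in Cebpafl/fl mice. Of 10 granulocyte markers 4 fell, among them S100a8 and S100a9, with differences of -3.51 and -3.37. Over the 10 markers 2 differences were above 0 and 8 below, at a median of -0.43, and Cxcr2 differed by 0.46 without overlap. The summed level of all 10 was 8.92 to 9.22 in Cebpafl/fl;Mx1Cre mice, against 10.54 to 10.72 in Cebpafl/fl mice. Of the 8 mast cell markers Cpa3 and Gzmb rose, by 3.47 and 2.20. Gzmb read 9.24, 7.18 and 7.42 in Cebpafl/fl;Mx1Cre mice a, b and c. Over the 8 markers 5 differences were above 0 and 3 below, at a median of 0.10, and Cma1 differed by -0.45 without overlap. The summed level of all 8 was 11.52 to 11.99 in Cebpafl/fl;Mx1Cre mice, against 9.22 to 9.28 in Cebpafl/fl mice. The adjusted p of Hlf, Mecom, S100a8, S100a9, Cpa3 and Gzmb was under 0.05 in limma. None passed of 9 erythroid, 10 granulocyte-monocyte precursor, 6 megakaryocyte, 9 lymphoid and 8 T and NK cell markers. In Cebpafl/fl;Mx1Cre mice the summed levels were 10.66 to 10.74 for erythroid, 11.72 to 12.22 for precursor, 9.31 to 9.37 for megakaryocyte, 11.62 to 11.96 for lymphoid and 9.81 to 10.10 for T and NK cell markers. In Cebpafl/fl mice they were 10.71 to 10.96 for erythroid, 11.59 to 11.88 for precursor, 9.32 to 9.39 for megakaryocyte, 10.94 to 11.37 for lymphoid and 9.69 to 9.89 for T and NK cell markers. Their part in the levels of the proliferation genes was not tested.

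Among other genes of the cell cycle, 1 of 45 measured replication genes passed. Cdc7, the kinase that fires replication origins, read 6.24, 6.24 and 6.25 in Cebpafl/fl;Mx1Cre mice, against 6.74, 6.84 and 6.66 in Cebpafl/fl mice, and fell by 0.51 ± 0.10, or 1.42-fold (adjusted p = 0.0422). In limma its call was lost under quantile normalization (adjusted p = 0.0564), median centring (0.0528), a replicate block (0.0773), an ordinary test (0.192) and without any single array (0.0658 to 0.157). Dbf4, the activating subunit of the same kinase, read 8.81, 8.40 and 8.74 in Cebpafl/fl;Mx1Cre mice, against 8.08, 8.01 and 8.09 in Cebpafl/fl mice, a difference of 0.59 ± 0.12 that did not pass (adjusted p = 0.0571), although it passed with either intensity filter, quantile normalization, median centring or without Cebpafl/fl;Mx1Cre mouse b (0.0381 to 0.0462). Orc2, of the origin recognition complex, differed by 0.52 ± 0.12 (adjusted p = 0.0687), and Rrm2b, a ribonucleotide reductase subunit that p53 induces, by 0.53 ± 0.14 (adjusted p = 0.104). The median of the 45 genes was -0.02, with 18 above 0 and 27 below.

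None of the 56 other mitosis genes passed, and their median difference was 0.09, with 42 above 0 and 14 below. The smallest adjusted p belonged to Cks2, a binding partner of Cdk1, with 0.35 ± 0.10 (adjusted p = 0.124), followed by the kinetochore gene Cenpk with 0.30 ± 0.10 (adjusted p = 0.191) and the mitotic kinase gene Pbk with -0.31 ± 0.11 (adjusted p = 0.205). None of 21 cell cycle transcription factors and pocket proteins passed, at a median of -0.02. E2f2 differed by 0.36 ± 0.11 (adjusted p = 0.159), the repressor E2f8 by -0.36 ± 0.13 (adjusted p = 0.213) and Mybl2, which encodes B-MYB, by 0.41 ± 0.15 (adjusted p = 0.222). None of 17 of 18 G1 cyclins, their kinases and CDK inhibitors passed, at a median of -0.05. Ccnd2, which encodes cyclin D2, differed by -0.46 ± 0.11 (adjusted p = 0.0692), the antiproliferative gene Btg2 by 0.61 ± 0.14 (adjusted p = 0.0713) and Ccnh, of the CDK-activating kinase, by 0.37 ± 0.10 (adjusted p = 0.106).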

How the data were processed

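The deposited values are log2 intensities of probe sets. The submitters' processing notes name RMA and Affymetrix Expression Console 1.1.2, while settings and annotation build were not given in the sources used here. Amplification started from 20 ng of RNA per array, per the labels. Of 35556 rows, 21789 name 1 gene in the platform's annotation, which gave 19938 genes. RefSeq names on GRCm38.p6 changed 0 symbols. Values were used as deposited, with no filter on dim rows and no detection calls.

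The genotype test used lmFit and eBayes of limma 3.58.1 (R 4.3.3), two-sided and without covariates, and p-values were adjusted by Benjamini-Hochberg over the whole table, with 0.05 as threshold. Differences are Cebpafl/fl;Mx1Cre minus Cebpafl/fl, with moderated standard errors. The fit was tested on simulated data. Levels are given for any of the genes, and differences with errors and adjusted p for Cebpa, the 6 S and 6 G2/M genes with the smallest p, the landmarks Mki67, Top2a, Pcna, Mcm2, E2f1 and Foxm1, and, per pathway list, each gene that passed and the 3 others with the smallest p. Aurkb and Mcm6 fall outside this rule and were named for their values. The genes and lists were chosen with earlier results of these data known, and no set test was run.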

Additional observations from a re-analysis of the deposited data

How the results depend on the processing

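No S gene and no G2/M gene was called in limma under any of 17 alternatives of the fit: an intensity trend or robust prior, filters at the median and the 25th percentile of intensity, quantile, median and cyclic loess scaling, the mean of a gene's rows, a replicate block, array weights, each array left out, and an ordinary test with pooled variance. The lowest adjusted p was 0.0532 for Ccne2 (replicate block) and 0.0836 for Ttk (without Cebpafl/fl;Mx1Cre mouse a). The sign held in all 17 for 29 of 44 genes. The count over all genes, 286, was 274 with the replicate block, 438 among genes at or above the median intensity, and 0 in the ordinary test, where 2585 genes, 3 S genes and 3 G2/M genes had an unadjusted p under 0.05. Leaving out 1 array gave 53 (without Cebpafl/fl mouse b) to 250, and with the mean of the other mitosis genes as a covariate, chosen after seeing the data, 128 were called and 0 of the 44. Over all genes, deviations of same-lettered mice correlated at -0.01, -0.04 and 0.06, and those of mice with different letters at -0.10 to 0.11. With 3 mice per genotype these values cannot decide whether mice that share a letter also share a batch.

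The S median was 0.049 under quantile scaling, and the S shared part 14.5%, or 4.88% to 12.2% without 1 array. The G2/M shared part was 27.5% to 53.5% without 1 array. Differences close to 0 changed sign: Pcna to 0.12 (quantile), 0.033 (median) and 0.048 (cyclic loess), Mcm2 to -0.036 (cyclic loess) and E2f1 to 0.043 (quantile) and 0.017 (median), and without 1 array they ran from -0.087 to 0.037, -0.11 to 0.18 and -0.077 to 0.055. The causes were not tested. Scaling moved the share of higher calls over all genes to 61.6% (quantile) and 65.8% (median centring), against 49.0% as deposited and with cyclic loess.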
